A study of Mus musculus with 10 samples.

Results

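The genes described are the nuclear genes for subunits of the oxidative phosphorylation machinery: complexes I to IV of the respiratory chain and complex V, the ATP synthase. They were taken as every protein-coding gene whose symbol begins with Ndufa, Ndufb, Ndufc, Ndufs or Ndufv and a number, with Uqcr, with Cox and a number from 4 to 8, or with Atp5, together with Sdha, Sdhb, Sdhc and Sdhd. This gave 84 of the 52636 genes in the count table: 37 of complex I, 4 of complex II, 8 of complex III, 18 of complex IV and 17 of complex V. Another 12 matching entries are not annotated as protein coding and were left out. Of those, 11 are processed pseudogenes with at most 6 counts in a tumour, and the other is Ndufb1-ps, annotated as a bidirectional promoter lncRNA, with 1402 to 2383 counts. Assignment to a complex followed the symbol, so Ndufa4 and Ndufa4l2 are counted in complex I although the NDUFA4 protein is now placed in complex IV.

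RNA was sequenced from 10 melanoma tumours of mice, and the study compared tumours with and without Arf6Q67L. The 6 tumours of genotype BrafCA;Cdkn2af/f; Arf6Q67L carry the small GTPase ARF6 in a form that stays bound to GTP, and the 4 controls are BrafCA;Cdkn2af/f. Both groups therefore share BrafCA, a Braf allele that Cre switches to an oncogenic form, and the floxed Cdkn2a tumour suppressor locus. The sources used here do not give the promoter that drives Cre, the cells it acts in, or the age and sex of the mice, nor do they state that each tumour came from its own mouse, so p-values measure the spread between these tumours.

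Complex I takes electrons from NADH and complex II takes them from succinate in the citric acid cycle. Both pass them through ubiquinone to complex III and on to complex IV, which reduces oxygen, and the proton gradient built by complexes I, III and IV drives ATP synthesis by complex V. Complexes I, III, IV and V each combine subunits from the nucleus with a few encoded by mitochondrial DNA, whereas complex II is nuclear throughout.

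Library totals lay between 28635414 and 40869091 counts. A count of 0 allows up to 3 counts, which is 0.0734 to 0.105 CPM (counts scaled to a common library size), for counting error only. Arf6 itself overlapped between the groups, at 74.7, 109 and 130 CPM as lowest, median and highest in Arf6Q67L tumours and 104, 92.7, 68.6 and 106 CPM in controls 1 to 4, and the counts do not separate the Arf6Q67L form from the wild-type gene. Among 8 melanocytic markers Tyr and Dct were at 0 in every tumour, Tyrp1 and Mlana reached at most 0.0521 and 0.101 CPM, and Mitf lay between 11.1 and 26.1 CPM. The pigment genes Tyr, Dct, Tyrp1 and Mlana were thus at or near 0 in tumours labelled as melanoma. This does not hold for the whole list, since 3 of the 8 markers had enough counts to be tested. Summed CPM of the 8 was 14.3 to 33.9 in Arf6Q67L tumours and 15.2 to 22.5 in controls. Xist and the Y-linked genes Ddx3y, Eif2s3y, Kdm5d and Uty divided the tumours clearly, with Arf6Q67L 1, 3 and 4 and control 1 female and the other 6 tumours male.

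Of the 84 subunit genes, 82 passed the low-count filter. The exceptions were the testis isoforms Cox7b2, with 0 counts in all 10 tumours, and Cox8c, with at most 0.0352 CPM. Levels between genes were compared as CPM per kilobase of exon, using the median over tumours. By that measure the median over the widely expressed subunits was 28.9 in complex I, 42.0 in complex II, 53.0 in complex V, 70.2 in complex III and 91.1 in complex IV. Subunits alpha and beta of the ATP synthase led, with 216 for Atp5a1 (alpha) and 216 for Atp5b (beta). Next were Cox6b1 at 183 and Cox4i1 at 164, both structural subunits of complex IV. Within the other complexes the highest were Ndufa8 at 116, Sdhd, a membrane anchor, at 102 and Uqcrh, the hinge protein of complex III, at 136. The lowest widely expressed members were Ndufb2 at 1.62 and Atp5s at 3.21. The 6 tissue-restricted isoforms with counts in most tumours lay between 0.726 for Cox8b and 2.33 for Cox6b2. The kilobases cover all annotated exons of a gene together, which is 5628 bases for Ndufb2, with a coding sequence of 315 bases. Ranks by this measure therefore depend on the annotation as well as on the counts.

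**Figure D1:**
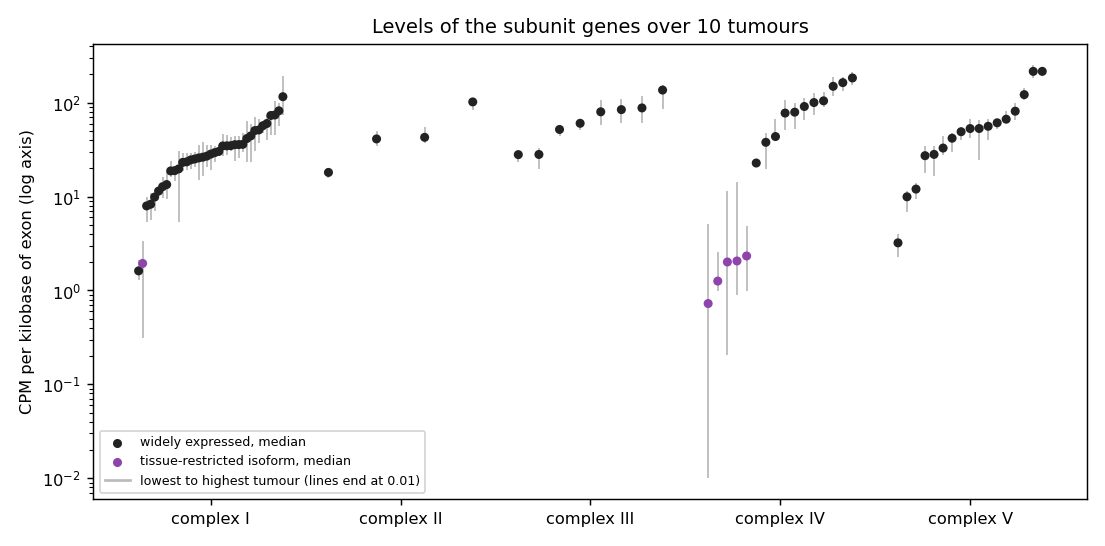
CPM per kilobase of exon for each subunit gene with a median above 0, grouped by complex on the horizontal axis; points are medians over 10 tumours and grey lines run from the lowest to the highest tumour. Complex IV has the highest median of widely expressed members (91.1) and also the lowest points, its tissue-restricted isoforms.

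The sequences in the next lines show the regulatory motif that the members' upstream windows held most often among 4 searched. RefSeq promoter windows on GRCm38.p6, 250 bases before to 50 after the annotated start, were found for 66 of the 84 members. The motif GCGCA, any base and GCGC, bound by NRF1, a factor known for activating respiratory chain genes, was found on either strand in 16 of these windows (24.2%), against 4.78% of 27025 windows of all genes. One stretch is shown from each complex other than complex III, with the motif in capitals, 25 bases on each side, read along the gene's own strand.
Ndufs5 (complex I, chr4:123718250-123718309, minus strand): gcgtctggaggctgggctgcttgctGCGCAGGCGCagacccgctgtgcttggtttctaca
Sdha (complex II, chr13:74350304-74350363, minus strand): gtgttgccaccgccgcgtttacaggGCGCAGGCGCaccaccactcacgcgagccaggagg
Cox6a1 (complex IV, chr5:115349086-115349145, minus strand): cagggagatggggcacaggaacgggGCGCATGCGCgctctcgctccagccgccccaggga
Atp5h (complex V, chr11:115420026-115420085, minus strand): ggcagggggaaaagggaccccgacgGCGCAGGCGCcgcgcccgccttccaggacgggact

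The ETS motif CCGGAAG, as bound by GABP, was in 15 member windows (22.7%) against 9.12% of all windows. The estrogen-related receptor motif TCAAGGTCA was in 2 (3.03%) against 0.407%. The MEF2 motif CTA, any 4 bases and TAG, known from muscle genes, was in 1 (1.52%) against 3.70%. Member windows had a median GC content of 57.2%, against 52.7% for all, and the part of base composition in these shares was not tested. A match describes the letters only.

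The genotype difference was small for nearly every member and none passed the test. With edgeR's quasi-likelihood test 0 of 82 members had a Benjamini-Hochberg adjusted p under 0.05, and 0% of the 17286 genes tested did. Without adjustment, 1 member was higher in Arf6Q67L tumours at p under 0.05, where the background was 4.65% of all genes, and 6 were lower, where the background was 7.05%, with 11.7% of all genes in either direction. DESeq2 called 1 member, Cox4i2, lower (background 1.42%) and 0 higher (background 0.966%), against 2.39% of all genes in either direction. Groups did not overlap in CPM for 1 member, again Cox4i2, among genes lower in Arf6Q67L tumours (background 1.28%), and for 0 among genes higher (background 1.15%), against 2.44% of all genes in either direction.

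The sign of the difference was nonetheless uneven. The log2 fold change of Arf6Q67L over control was negative for 65 of 82 members (79.3%), with a median of -0.14, whereas 50.3% of all genes tested were negative, with a median of -0.0018. By complex, 31 of 37 were negative in complex I (median -0.15), 2 of 4 in complex II (median 0.02), 6 of 8 in complex III (median -0.15), 13 of 16 in complex IV (median -0.15) and 13 of 17 in complex V (median -0.16). Members move together within a tumour, so these counts are not independent. The members' median was -0.086 without Arf6Q67L 1, -0.086 without Arf6Q67L 3 and -0.071 without control 4, with 60 to 69 members negative whichever tumour was left out. With the skeletal muscle score of each tumour as a term it was -0.23, with 70 of 82 members negative. Fewer were negative with sex as a term, 59 of 82, and in male tumours only, 55 of 82.

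**Figure D2:**
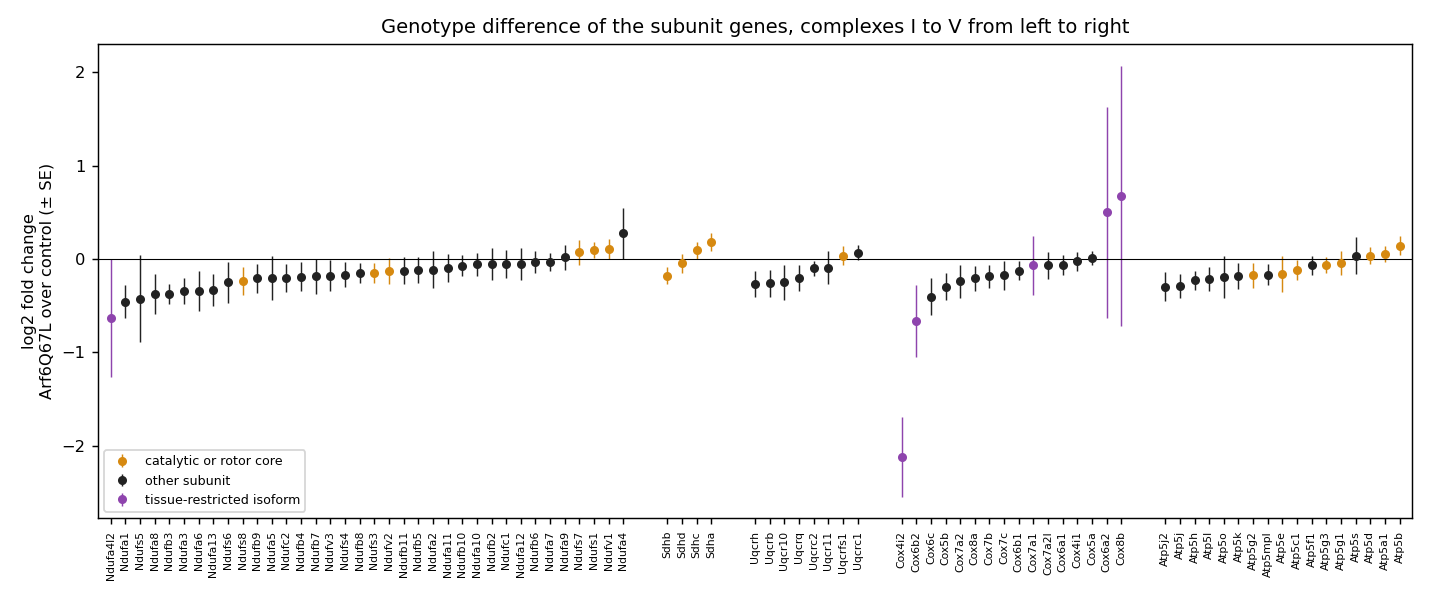
Log2 fold change of Arf6Q67L over control with its SE (edgeR) for the members tested except 1, sorted within complexes I to V from left to right and coloured by class. Most points lie a little below 0 (median -0.14), Cox4i2 stands lowest at -2.12, and the muscle isoforms Cox6a2 and Cox8b have the widest errors.

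A score for each tumour, the mean deviation of log2 CPM from each gene's mean over the 10 tumours, was taken over the 76 members that are not tissue-restricted isoforms. Arf6Q67L tumours 1 to 6 scored -0.31, -0.12, -0.13, 0.0039, 0.19 and 0.038, and controls 1 to 4 scored -0.093, 0.074, 0.13 and 0.21. Arf6Q67L 1 was lowest, and the groups overlapped, with Arf6Q67L 5 above 3 of the 4 controls. The group means were -0.054 ± 0.17 (SD, n = 6) and 0.081 ± 0.13 (SD, n = 4). Arf6Q67L 1 held the lowest value of the 10 tumours for 49 of the 76 genes and Arf6Q67L 3 for 14, while control 4 held the highest for 31 and Arf6Q67L 5 for 23. The range was narrow for single genes: the highest tumour was a median of 1.66 times the lowest, and 64 of 76 genes stayed under a ratio of 2.

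Complexes I, III, IV and V had the same lowest tumour. In Arf6Q67L 1 they were -0.34, -0.35, -0.39 and -0.26, the lowest in each complex. In control 4 they were 0.24, 0.19, 0.23 and 0.17, the highest in complexes III, IV and V and close below Arf6Q67L 5 in complex I. Complex II differed in range, not only in level: its score ran from -0.12 in control 3 to 0.12 in control 4 and was -0.028 in Arf6Q67L 1. The whole spread of the Arf6Q67L tumours on complex II was -0.028 to 0.030. These are descriptions of scores over the same libraries.

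**Figure D3:**
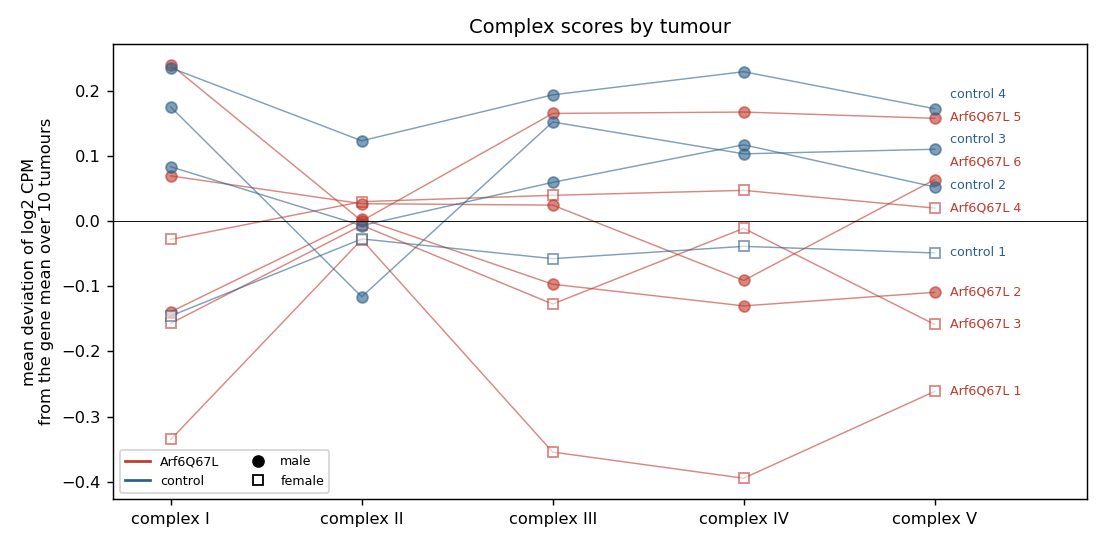
Mean deviation of log2 CPM from each gene's mean over 10 tumours, for each complex (horizontal axis) and tumour (lines; red Arf6Q67L, blue control; filled circles male, open squares female, read from Xist and Y-linked genes). Arf6Q67L 1 is lowest in complexes I, III, IV and V, and its score is -0.028 in complex II.

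Sex moved with the score. The 4 female tumours, of which 3 were Arf6Q67L, averaged -0.13 ± 0.13 (SD) and the 6 male tumours, 3 of each genotype, averaged 0.088 ± 0.12 (SD). Among males alone the means were 0.037 in Arf6Q67L tumours and 0.14 in controls. With sex as a term in the edgeR fit the members' median log2 fold change was -0.084, and in male tumours only it was -0.065. Only 1 control was female, so a within-female comparison has 1 tumour on that side. The part of sex in the difference between groups was not tested further.

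The size of the subunit also went with the sign. The catalytic and electron-carrying core of complexes I and III, all of complex II, and the F1 head and c-ring of complex V make 20 members, and 10 of them were positive and 10 negative, with a median of -0.0023. Of the other 56 subunits 51 were negative, with a median of -0.18. These classes were chosen after the values were seen, and the grouping by coding length below was not planned beforehand either. The core deviation was -0.15 in Arf6Q67L 1 and 0.086 in control 4, against -0.37 and 0.25 for the other subunits. Grouped by coding length instead, 51 of 55 members under 600 bases were negative (median -0.18), and 10 of 21 longer members were (median 0.016). Other genes with short coding sequences leaned the same way: 65.2% of 1750 were negative (median -0.10), against 47.7% of 12521 longer genes (median 0.014). Across genes, Pearson's r between log2 coding length and log2 fold change was 0.53 over 76 members and 0.12 over 14271 other genes, as a description, since genes of the same libraries are not independent. Complex identity, size and role overlap among these subunits and cannot be told apart here.

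In complex I the 3 members of lowest p were accessory subunits. Ndufb3, in the membrane arm (chr1:58586384-58595964), had 22.5, 25.8 and 27.7 CPM as lowest, median and highest in Arf6Q67L tumours and 27.2, 33.5, 35.7 and 36.3 CPM in controls. Control 1 alone fell within the Arf6Q67L range. Its log2 fold change was -0.38 (SE 0.11, edgeR adjusted p = 0.283). Ndufa1 (chrX:37187588-37191163), a small accessory subunit encoded on the X chromosome, had 12.9, 19.7 and 22.4 CPM against 19.7, 27.6, 25.6 and 29.7 CPM, with a log2 fold change of -0.46 (SE 0.17, edgeR adjusted p = 0.369). Ndufa3 (chr7:3617373-3620327) had 21.2, 25.5 and 34.6 CPM against 28.2, 33.9, 35.1 and 36.6 CPM, with a log2 fold change of -0.35 (SE 0.14, edgeR adjusted p = 0.387). In all 3 genes the lowest tumour was Arf6Q67L 1, and control 1 was the lowest control.

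The 7 core subunits of complex I had 4 positive and 3 negative log2 fold changes, with a median of 0.07. Among the positive ones Ndufs1, the largest iron-sulfur subunit, gave 0.09 (SE 0.083, edgeR adjusted p = 0.709). Ndufv1, which holds the NADH site, gave 0.11 (SE 0.11, edgeR adjusted p = 0.728). The negative ones were Ndufs8 at -0.23 (SE 0.15), Ndufs3 at -0.15 (SE 0.11) and Ndufv2 at -0.13 (SE 0.14). Groups overlapped for each of these genes. Ndufa8, the most abundant member per kilobase, had a log2 fold change of -0.38 (SE 0.21, edgeR adjusted p = 0.530), from 63.0, 95.0 and 130 CPM against 85.3, 131, 112 and 167 CPM.

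Ndufs5, another accessory subunit, had the widest range of the 76 genes, and that range went with a near-identical processed copy. Ndufs5 (chr4:123712710-123718202) held 19.0, 22.4, 14.3, 5.67, 13.9 and 14.9 CPM in Arf6Q67L tumours 1 to 6 and 4.67, 25.8, 26.1 and 24.4 CPM in controls 1 to 4, a ratio of 5.60 between highest and lowest. The processed pseudogene BC002163 (chr16:42955631-42955949) is 99.4% identical over the 318 coding bases of Ndufs5. It had 5, 2, 255, 466, 332 and 252 counts in Arf6Q67L tumours and 637, 0, 5 and 2 counts in controls. The 5 tumours with 252 copy counts or more were the 5 with the least Ndufs5. The sum of both was 19.2, 22.4, 22.5, 20.3, 22.6 and 22.1 CPM in Arf6Q67L tumours and 20.8, 25.8, 26.3 and 24.5 CPM in controls, a ratio of 1.37. Those 5 tumours included both genotypes and both sexes. When all tumours are sorted by the number in the sample title, those 5 follow one another without a break. The titles do not say what the numbers mean. Which of the 2 places gave the RNA was not tested, and the Ndufs5 level is uncertain.

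The sequences of Ndufs5 and its copy differ at 2 positions of the coding sequence, T81C and A105G, counted from 1 at the first base of the start codon, with the base of Ndufs5 first. The stretch from position 51 to 135 in the GRCm38 reference is shown because reads over it can be told apart only by those bases, which are in capitals.
Ndufs5: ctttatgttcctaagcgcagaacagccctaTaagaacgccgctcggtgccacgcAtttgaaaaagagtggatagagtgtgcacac
BC002163: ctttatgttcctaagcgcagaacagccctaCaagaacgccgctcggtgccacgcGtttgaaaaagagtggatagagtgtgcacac

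Near-identical copies, at 90% identity or more over at least 80% of the coding sequence, were found for 31 of the 84 members, 67 copies in all. In 3 members the copies held over 5 counts for each 100 of the gene. Besides Ndufs5 these were Ndufa12, an accessory subunit of complex I, and Atp5o, a stalk subunit of complex V. The copy of Ndufa12, Gm15920 (chr5:130188395-130188796, 99.5% identical), took 14.5% to 17.0% of the pair's counts in the 6 Arf6Q67L tumours and 9.83%, 15.3% and 14.8% in controls 2, 3 and 4, but 0.25% in control 1. Atp5o was at 48.9 CPM in Arf6Q67L 3 and between 90.6 and 131 CPM in the other 9 tumours, and its copy took 4.01% to 5.43% of the counts of both in each tumour, Arf6Q67L 3 included.

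**Figure D4:**
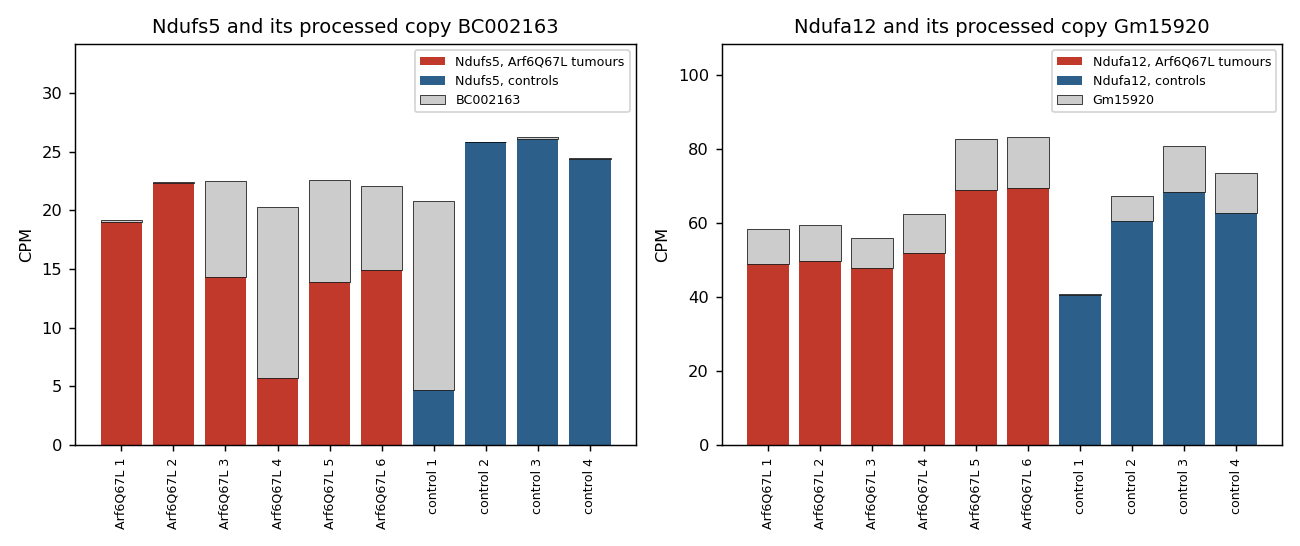
CPM of Ndufs5 and Ndufa12 in each tumour (red Arf6Q67L, blue control) with the CPM of their processed copies stacked on top in grey; bars start at 0. The Ndufs5 sum spans 19.2 to 26.3 CPM while Ndufs5 alone spans 4.67 to 26.1, and the Ndufa12 copy is nearly missing in control 1.

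Complex II, which oxidises succinate, showed no common direction. Sdha, the flavoprotein (chr13:74322254-74350280), had 170, 179 and 229 CPM in Arf6Q67L tumours and 171, 169, 153 and 174 CPM in controls, with a log2 fold change of 0.18 (SE 0.099, edgeR adjusted p = 0.512). Sdhb, the iron-sulfur subunit, had 78.3, 89.8 and 96.4 CPM against 98.3, 89.3, 98.8 and 112 CPM, with a log2 fold change of -0.18 (SE 0.090, edgeR adjusted p = 0.474). The catalytic pair thus had opposite signs within overlapping ranges. The anchors Sdhc and Sdhd had log2 fold changes of 0.09 (SE 0.086) and -0.05 (SE 0.099).

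In complex III the values below 0 were those of supporting subunits, and the catalytic Rieske subunit was close to 0. Uqcrh (chr4:116066965-116075071) had 106, 160 and 182 CPM in Arf6Q67L tumours and 168, 192, 192 and 184 CPM in controls, with a log2 fold change of -0.27 (SE 0.14, edgeR adjusted p = 0.481). Uqcrb gave -0.26 (SE 0.14) and Uqcrq -0.21 (SE 0.14), both with overlapping groups. Uqcrfs1, the Rieske iron-sulfur protein, gave 0.04 (SE 0.097).

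Complex IV held the member with the largest difference. Cox4i2 (chr2:152754173-152765037) is the isoform of subunit 4 known from lung and vessel walls. It had 0.702, 1.34 and 1.82 CPM as lowest, median and highest in Arf6Q67L tumours and 2.51, 4.56, 3.49 and 11.3 CPM in controls. Every control was above every Arf6Q67L tumour, and control 4 was the highest. The log2 fold change was -2.12 (SE 0.43), 4.34-fold higher in controls by the fit, with an edgeR adjusted p of 0.233 and a DESeq2 adjusted p of 0.00108, so the call depends on the tool. Without control 4 the log2 fold change was -1.48, and over all left-out tumours it ran from -2.36 to -1.48. Cox4i1, the widely expressed subunit 4, had 205, 254 and 291 CPM against 270, 240, 270 and 239 CPM, with a log2 fold change of -0.03 (SE 0.11, edgeR adjusted p = 0.948).

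The ratio of the Cox4 isoforms within a tumour does not depend on library scaling. The log2 ratio of Cox4i2 to Cox4i1 averaged -7.63 ± 0.44 (SD, n = 6) in Arf6Q67L tumours and -5.77 ± 1.0 (SD, n = 4) in controls, and all 6 Arf6Q67L tumours lay below the lowest control. The difference was -1.86, with p = 0.00476 in a two-sided exact permutation test, the smallest its 210 splits can give, and 0.0238 after Benjamini-Hochberg adjustment over the 5 isoform pairs tested. Cox4i1 was level between the groups, so the ratio restates the separation of Cox4i2 and is not a second result. With medians in place of means the adjusted p was 0.0714 for a difference of -1.58. Without any 1 control it was 0.0595, which is the smallest p that 6 against 3 tumours allow, adjusted over 5 pairs.

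Markers of vessel cells, macrophages and T cells mostly had negative log2 fold changes, and those of mast cells positive ones. In bulk tumours, fewer cells of a type and less RNA per cell cannot be told apart. All 6 pericyte markers were tested, 4 with a negative and 2 with a positive log2 fold change, and their summed CPM was 114 to 255 in Arf6Q67L tumours and 169 to 211 in controls. None was at 0 throughout; Kcnj8 and Abcc9, the pericyte potassium channel subunits, gave -1.10 (SE 0.43, edgeR adjusted p = 0.381) and -0.98 (SE 0.34, edgeR adjusted p = 0.345), while Rgs5 gave 0.65 (SE 0.62, edgeR adjusted p = 0.728). All 5 endothelial markers were negative, with summed CPM of 62.6 to 252 in Arf6Q67L tumours and 114 to 275 in controls. Macrophage markers (5 of 5) and T cell markers (6 of 6) were negative too, with summed CPM of 503 to 1087 against 745 to 2298 and of 12.9 to 71.5 against 24.7 to 261. All 5 mast cell markers were positive (median 3.03), with summed CPM of 32.8 to 524 against 12.7 to 53.6. Their part in the Cox4i2 difference was not tested.

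The other tissue-restricted isoforms varied mostly within the groups. Ndufa4l2, known as hypoxia-induced, had 0.338, 1.12 and 3.70 CPM in Arf6Q67L tumours and 3.14, 2.14, 2.11 and 3.02 CPM in controls. The Arf6Q67L tumours spread on both sides of the controls, and the spread went with sex. The male Arf6Q67L tumours 2, 5 and 6 were at 0.800, 0.338 and 0.515 CPM, below the male controls at 2.11 to 3.02 CPM, and the female ones were at 1.43 to 3.70 CPM, against 3.14 CPM in the female control. Its log2 fold change was -0.63 (edgeR adjusted p = 0.741), or -1.55 with sex as a term (edgeR adjusted p = 0.358). Its log2 ratio to Ndufa4 differed by -1.29 (exact permutation p = 0.181, adjusted p = 0.302). Cox6b2, a testis isoform, gave a log2 fold change of -0.66 (SE 0.39, edgeR adjusted p = 0.541). Cox7a1, a heart and muscle isoform, gave -0.07 (SE 0.32), a value that turned positive with sex as a term (0.041).

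Cox6a2 and Cox8b, isoforms of striated muscle, were highest in the tumours with the largest sums of muscle markers. Cox6a2 (chr7:128205435-128206387) was at 0.190, 3.25, 2.08, 3.73, 7.78 and 0.543 CPM in Arf6Q67L tumours 1 to 6 and at 0.507, 0.660, 0.141 and 6.98 CPM in controls 1 to 4. The summed CPM of the 13 skeletal muscle markers, among them Acta1 and Ckm, was 18.9, 632, 366, 642, 900 and 90.1 in the same Arf6Q67L tumours and 48.2, 6.79, 4.55 and 1419 in the controls, with no marker at 0 in all tumours. The 5 tumours with a muscle sum above 300 were the 5 with the highest Cox6a2. Cox8b (chr7:140898945-140900446) was at 0, 0.772, 0.351, 0.909, 1.82 and 0.172 CPM against 0.0254, 0, 0 and 1.68 CPM, highest in the same 5 tumours. The log2 ratio to the widely expressed isoform differed between genotypes by 1.09 for Cox6a2 (exact permutation p = 0.381) and 1.80 for Cox8b (exact permutation p = 0.176, adjusted p = 0.302). The Cox8b difference rests on counts of 0 or 1 in 4 tumours and so on the prior count: it was 2.64 with a prior count of 0.5, and 2.94 without control 4. With the muscle score as a term the Cox6a2 log2 fold change turned from 0.50 to -0.77. Ucp1, the marker of brown fat, which also uses Cox8b, was at most 0.0940 CPM. The summed CPM of the 6 adipocyte markers, Ucp1 among them, was 46.2 in control 4 and 0.0705 to 6.07 in the other tumours. The 4 adipocyte markers tested had negative log2 fold changes (median -2.65). The part of fat in the Cox6a2 and Cox8b levels was not tested.

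**Figure D5:**
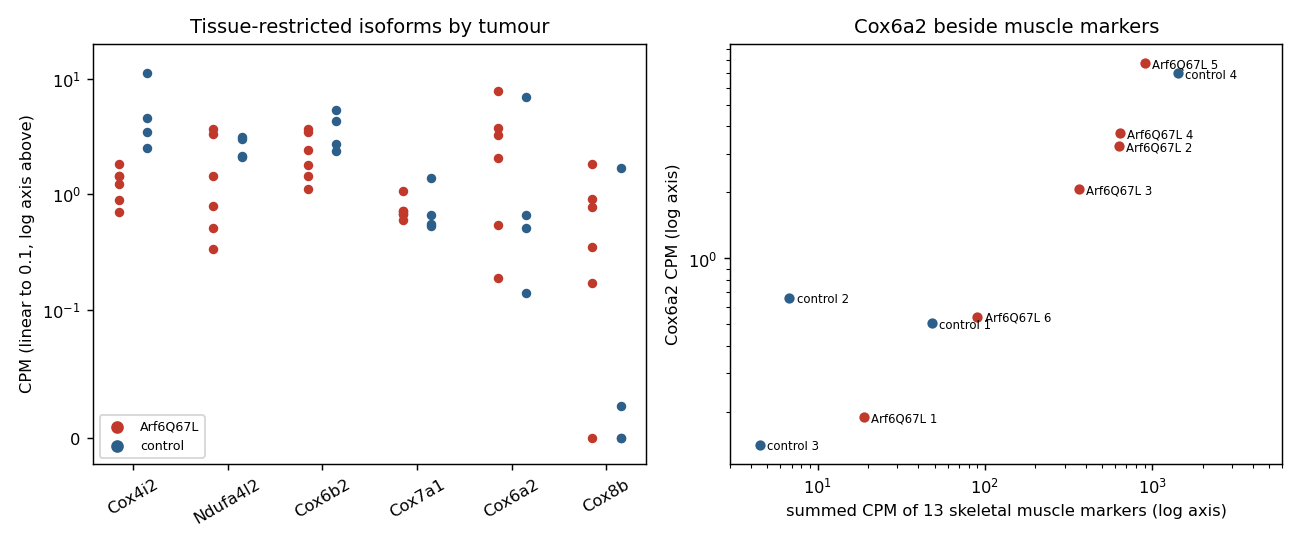
Left, CPM of 6 tissue-restricted isoforms in each tumour (red Arf6Q67L, blue control; axis linear to 0.1 and log above). Right, Cox6a2 CPM against the summed CPM of 13 skeletal muscle markers, both on log axes: Cox4i2 separates the groups, and Cox6a2 is highest in the 5 tumours with the largest muscle sums, 366 to 1419 CPM.

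The remaining complex IV subunits named had log2 fold changes a little below 0, and none passed the test. Cox6c gave a log2 fold change of -0.41 (SE 0.20, edgeR adjusted p = 0.459), from 69.6, 117 and 147 CPM in Arf6Q67L tumours and 133, 170, 152 and 144 CPM in controls. Cox5b gave -0.30 (SE 0.14, edgeR adjusted p = 0.456). Cox6b1, the most abundant per kilobase, gave -0.13 (SE 0.10). The widely expressed counterparts of the muscle isoforms gave -0.06 (Cox6a1, SE 0.11), -0.24 (Cox7a2, SE 0.18) and -0.20 (Cox8a, SE 0.13). Cox7a2l, a factor of respiratory supercomplexes, gave -0.07 (SE 0.14). All of these groups overlapped.

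In complex V the most negative values were in the stalk and membrane parts. Atp5h, subunit d of the peripheral stalk (chr11:115415689-115419962), had 95.3, 115 and 127 CPM in Arf6Q67L tumours and 119, 122, 143 and 146 CPM in controls, with a log2 fold change of -0.23 (SE 0.10, edgeR adjusted p = 0.416). Atp5j, coupling factor 6 (chr16:84827866-84835625), had 86.8, 96.9 and 118 CPM against 94.0, 116, 139 and 140 CPM, with -0.29 (SE 0.13, edgeR adjusted p = 0.427). Atp5j2, a membrane subunit, gave -0.30 (SE 0.15, edgeR adjusted p = 0.481). In each the upper Arf6Q67L tumours overlapped the lower controls. The alpha and beta subunits of the F1 head gave 0.06 for Atp5a1 (SE 0.083) and 0.14 for Atp5b (SE 0.10). The genes Atp5g1, Atp5g2 and Atp5g3, which encode 1 and the same mature c-ring protein, gave -0.04, -0.18 and -0.06. Atp5g3 was the highest of them per kilobase at 61.1 and Atp5g1 the lowest at 12.02, on 2181 and 4912 annotated exon bases.

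Shares of counts can differ from the scores. They weigh genes by their counts, many of them from Atp5a1 and Atp5b, and use library totals without TMM factors. Complex V took 0.310% ± 0.033 (SD, n = 6) of counts in Arf6Q67L tumours and 0.302% ± 0.0067 (SD, n = 4) in controls, although 13 of its 17 members had a negative log2 fold change. All 84 nuclear members together took 0.726% ± 0.081 (SD, n = 6) and 0.737% ± 0.043 (SD, n = 4), a difference within the spread of either group. The 13 mitochondrially encoded subunits took 2.19% ± 0.30 (SD, n = 6) and 2.15% ± 0.17 (SD, n = 4).

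Of those 13 genes 11 were tested, 6 with a positive and 5 with a negative log2 fold change (median 0.02), and 0 passed edgeR's test. mt-Co1, the catalytic subunit of complex IV, had 7374, 8751 and 10807 CPM in Arf6Q67L tumours and 8728, 8516, 10271 and 9582 CPM in controls. Levels of mt-Co2, mt-Atp6, mt-Atp8, mt-Nd3 and mt-Nd4l were at most 1.25 CPM, and mt-Co3 reached 26.1 CPM in control 3 and at most 1.32 CPM elsewhere. Subunits of the same complexes were thus listed at very different levels. Those 6 values are uncertain, since the sources used here do not say how multiply matching reads were counted.

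Genes around the pathway leaned in different directions, and edgeR called 0 in each list. Of 5 subunits or carriers outside the symbol pattern (Ndufab1, Cyc1, Cycs, Atpif1 and Usmg5) all had a negative log2 fold change (median -0.13). Of 43 assembly factors tested 22 were positive and 21 negative (median 0.0058). Nubpl, an iron-sulfur assembly factor of complex I, had 6.86, 7.80 and 11.1 CPM in Arf6Q67L tumours and 6.16, 5.82, 5.22 and 5.80 CPM in controls. Its groups did not overlap, and its log2 fold change was 0.54 (SE 0.17, edgeR adjusted p = 0.307, DESeq2 adjusted p = 0.0372). Pet100, a complex IV factor, gave -0.45 (SE 0.21, edgeR adjusted p = 0.435).

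Biogenesis regulators were split 8 to 8 (median 0.0081), with 0.22 (SE 0.079, edgeR adjusted p = 0.351) for Pprc1, a PGC-1-related coactivator, and 0.18 (SE 0.096, edgeR adjusted p = 0.496) for Polrmt, the mitochondrial RNA polymerase. Of 13 citric acid cycle enzymes 10 were positive (median 0.08). Suclg2 and Sucla2, alternative beta subunits of succinyl-CoA ligase, gave 0.36 (SE 0.14, edgeR adjusted p = 0.376) and 0.15 (SE 0.072, edgeR adjusted p = 0.459). Sucla2 was the only 1 of the 13 whose groups did not overlap (background 1.15% higher, 1.28% lower). Of 77 mitochondrial ribosomal protein genes tested 51 were negative (median -0.06). Mrpl14 gave -0.30 (SE 0.12, edgeR adjusted p = 0.372), and Mrpl13 gave -0.42 (SE 0.18, edgeR adjusted p = 0.412). Among the 77, Mrpl14 alone had groups that did not overlap (background 1.15% higher, 1.28% lower).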

How the data were processed

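Polyadenylated RNA was measured in 10 tumours, 6 of them Arf6Q67L, with TruSeq Stranded libraries, per the labels' protocols. The authors deposited 1 table of unnormalized counts, 1 column for each library. The submitters' processing notes name STAR 2.5.2b, featureCounts 1.5.1, DESeq2 1.18.0 and GRCm38 but no role for any. How strand and multiply matching reads were handled is not given in the sources used here. Arf6Q67L tumours hold library numbers 1 to 6 and controls 9 to 12, so the order of libraries cannot be told apart from genotype. Tumours are numbered in accession order.

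Symbols came from GENCODE M21 (52489 genes, 99.7%). Genes were tested in edgeR 4.0.16 (R 4.3.3; filterByExpr, minimum count 10; TMM; glmQLFit robust, glmQLFTest; Benjamini-Hochberg over 17286 genes, threshold 0.05), with SE the fold change over the root of F. The fit was first tested on simulated counts. CPM use TMM factors, and log2 CPM a prior count of 2. Isoform ratios had exact permutation tests over 210 splits. Copies were found with BLAST 2.17.0 against GENCODE transcripts.

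Alternatives were DESeq2 1.42.0, other scaling factors, no filter, limma 3.58.1 voom with quality weights, muscle or sex as a term, and leaving out each tumour. Male tumours only and well-counted mitochondrial genes only were chosen after seeing the data. So were the core and other subunit classes, and the grouping by coding length was not planned. Named genes are the 3 of lowest p and the most abundant in complexes I, III, IV and V, all of complex II, members with separate groups or 0 counts, isoforms with their counterparts, and 2 per pathway list; any other name was picked with its values known. The own values of 1 member are not reported here. The members, lists and rule were chosen with earlier results of these data known.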

Additional observations from a re-analysis of the deposited data

Results flagged for a closer look

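Single tumours stood apart from the rest of their group in 11 of 188 groups of values checked, for the 84 members, their scores and 5 isoform ratios, by the gap between the most extreme tumour and the next as a share of the group's range. Chance flags about 1 in 20 groups. Control 4 stood above the other 3 controls for Cox6a2, at 6.98 CPM against 0.141 to 0.660, for Cox8b, at 1.68 CPM against 0 to 0.0254, and for Cox7a1, at 1.38 CPM against 0.529 to 0.660. Its log2 ratio of Cox7a1 to Cox7a2 was -6.12, against -6.96 to -6.90 in the other controls. Cox6a2, Cox8b and Cox7a1 encode isoforms known from striated muscle. Control 4 had the largest sum of muscle markers, 1419 CPM, and also of adipocyte (46.2), T cell (261) and macrophage (2298) markers. Cox7a1 was at 0.677 CPM in Arf6Q67L 5, where the muscle sum was 900 CPM. The part of any cell type in these values was not tested. Among Arf6Q67L tumours, Arf6Q67L 2 stood above the others for Cox7a1, at 1.08 CPM against 0.596 to 0.721. Arf6Q67L 5 stood above the others for Cox5b, a nuclear subunit of complex IV, at 90.8 CPM against 64.3 to 70.1. Cox8c, a testis isoform, was at 0.0352 CPM in control 3 and at 0 in the other controls, which is 1 count and under the floor of 3. Control 1 stood below the other controls for Ndufs5, at 4.67 CPM against 24.4 to 26.1, and for Atp5k, a membrane subunit of complex V, at 32.5 CPM against 38.7 to 39.0. Control 3 stood above the other controls for Ndufa6, an accessory subunit of complex I, at 106 CPM against 79.3 to 82.0, and below them for Uqcrc2, of complex III, at 129 CPM against at least 136.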

How the results depend on the processing

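The count of genes called was 0 with edgeR, 413 with DESeq2, 2 with limma-voom, 37 with the muscle score as a term and 2 in male tumours only, and 0 to 1 when each tumour was left out. For the members the count was 1 with DESeq2 and 1 with the muscle term, Cox4i2 both times, with log2 fold changes of -2.11 (DESeq2 adjusted p = 0.00108) and -2.41 (edgeR adjusted p = 0.0467). The complex IV median was -0.33 with the muscle term. Over left-out tumours the members' median ran from -0.19 to -0.071. That of complex II ran from -0.027 to 0.080. Signs turned for genes with values near 0 or wide errors: Cox6a2 gave -0.77 with the muscle term, Cox7a1 0.18 with limma-voom and 0.041 with the sex term, and Atp5g1 0.031 with the sex term. Over left-out tumours Cox4i1 ran from -0.074 to 0.026, Cox6a1 from -0.13 to 0.046, Cox6a2 from -0.080 to 2.74, Cox7a1 from -0.21 to 0.36, Cox7a2l from -0.15 to 0.0040 and Atp5g1 from -0.11 to 0.035. The log2 ratio of Cox4i2 to Cox4i1 was -1.58 with medians (adjusted p = 0.0714, exact permutation test) and ran from -2.18 to -1.41 over left-out tumours. No paired analysis was possible because the labels give the groups no shared replicate numbers. Levels under the floor of 3 counts carry no direction.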
